A study of Caenorhabditis elegans with 2 samples.

Results

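The genes described here are 8 developmental timing (heterochronic) genes of Caenorhabditis elegans: puf-9, hbl-1, lin-14, lin-28, lin-41, lin-42, lin-46 and let-7. They were chosen by name. Their regions in lists of ELT-3 binding were taken as all regions with a summit from 3000 bp upstream of the gene's 5′ end to its 3′ end. By this rule the 8 genes held 2 of the 280 regions of the reproducible list, 41 of 21761 of the list from the pooled replicates, 56 of 30000 of replicate 1 and 43 of 30000 of replicate 2. The set was compared with 19973 protein-coding genes.

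The data are from chromatin immunoprecipitation and sequencing (ChIP-seq) on whole L3 larvae of strain OP75, mixed sex, age not given, in 2 biological replicates. All animals carry unc-119(ed3), a mutation in unc-119, and the transgene wgIs75, a tagged copy of elt-3, the gene of an epidermal transcription factor that binds GATA motifs. The labels describe the target as eGFP-elt-3 and list elt-3 as the antibody. The labels give neither the promoter of the transgene nor the number of its copies. Both replicates form a single group, so no conditions are compared and no test was made. Whole larvae were used and no expression was measured, so the tissue in which a region is bound, and the epidermal activity of these genes, were not tested. The reproducible list holds the regions that passed the authors' irreproducible discovery rate (IDR) threshold, and the other lists also hold background regions. The value that orders a list is the authors' signal, whose scaling the labels and headers do not state. Rank 1 is the strongest region of a list. Read depth is unknown.

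Heterochronic genes set the order of larval cell fates, above all in the seam cells of the epidermis, which divide in a stage-specific pattern at each moult. LIN-14 and LIN-28 hold early fates, HBL-1 and LIN-41 delay later ones, and microRNAs of the lin-4 and let-7 families remove these proteins as the larva grows. PUF-9, a Pumilio-family RNA-binding protein, is needed for repression of hbl-1 through its messenger RNA.

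The DNA under the reproducible regions at puf-9 and lin-14 is shown first, because these are the regions of the set that passed the IDR threshold. The windows are 300 bases long around the summit, on the plus strand of ce11, the strand of both genes. They are chrX:5841107-5841406 for puf-9 and chrX:11474891-11475190 for lin-14. Capitals mark the GATA motif WGATAR on either strand, that is TGATAA and its variants with A as the first letter, G as the last letter, or both. Matches may overlap.
puf-9: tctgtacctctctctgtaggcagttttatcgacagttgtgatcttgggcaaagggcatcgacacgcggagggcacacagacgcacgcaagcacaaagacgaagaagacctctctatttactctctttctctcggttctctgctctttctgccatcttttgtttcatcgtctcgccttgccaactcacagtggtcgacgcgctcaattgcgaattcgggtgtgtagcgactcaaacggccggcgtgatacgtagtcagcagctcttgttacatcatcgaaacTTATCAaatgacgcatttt
lin-14: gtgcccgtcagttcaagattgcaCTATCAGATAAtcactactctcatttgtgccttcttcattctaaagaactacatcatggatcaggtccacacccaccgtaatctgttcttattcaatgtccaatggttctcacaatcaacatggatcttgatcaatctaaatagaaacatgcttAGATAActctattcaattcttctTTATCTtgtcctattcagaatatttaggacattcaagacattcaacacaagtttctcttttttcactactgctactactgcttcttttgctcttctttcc
The puf-9 window has 1 match, 131 to 136 bp to the right of the summit, and the lin-14 window has 4, the nearest 27 to 32 bp to the right. WGATAR was in 75.4% of windows of this length at all reproducible regions and in 53.6% at all pooled regions.

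Of the 8 genes, 2 (puf-9 and lin-14) held a reproducible region, set beside 1.66% of all protein-coding genes. In the pooled list 7 of 8 held a region (67.2% of all protein-coding genes). In replicate 1 it was 8 of 8 (78.2%) and in replicate 2 it was 7 of 8 (78.8%). Among the 1000 strongest pooled regions 3 genes, puf-9, lin-14 and lin-42, held a summit (5.34%). Since the genes were chosen with these lists known, these counts are a description. The shares of all genes do not take window length into account. Similar windows were taken from 0.8 times a gene's window length to that length divided by 0.8. Among protein-coding genes with similar windows, the share with a reproducible region was 4.44% for lin-14, 4.85% for lin-42 and 1.82% for puf-9. On chromosome X, with puf-9 and lin-14, the share was 2.42%. No such share was taken for the 1000 strongest regions.

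By their strongest pooled region the genes fell in the order puf-9 (rank 13), lin-14 (187), lin-42 (746), hbl-1 (3152), let-7 (8094), lin-46 (11291) and lin-28 (17516), with no pooled region at lin-41. In replicate 1 the order was puf-9 (19), lin-42 (466), lin-14 (842), lin-41 (1184), hbl-1 (2334), let-7 (2361), lin-46 (10240) and lin-28 (14867). In replicate 2 it was puf-9 (47), lin-14 (88), hbl-1 (1060), lin-42 (5201), let-7 (6108), lin-46 (6556) and lin-28 (6940), with no region at lin-41. Thus puf-9 came first of these genes in every list, and lin-46 and lin-28 came last of those with a region. The places of lin-14, lin-42, hbl-1 and lin-41 changed between the replicates. Their place among all protein-coding genes by best signal depended on the list. lin-46 stood at percentile 56.4 in the pooled list, 59.0 in replicate 1 and 69.9 in replicate 2. lin-28 stood at 40.7, 46.8 and 68.5 in the same lists. Genes without a region in a list are counted among those with a lower signal.

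**Figure D1:**
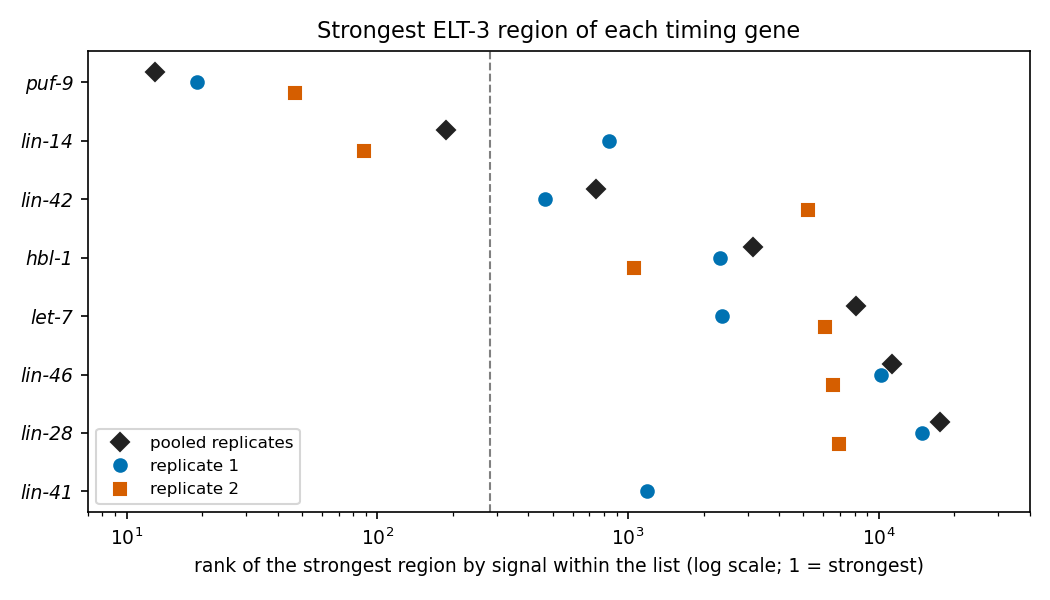
Rank of the strongest region of each gene (horizontal, log scale) in the pooled list (diamonds), replicate 1 (circles) and replicate 2 (squares); the dashed line is at rank 280, the length of the reproducible list. Symbols of puf-9 lie left of the line in each list, those of lin-14 lie on both sides of it, and lin-41 has a symbol for replicate 1 alone.

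At puf-9 (WBGene00004245; X, 5841592 to 5845987, plus strand) the reproducible region had rank 13, with a signal of 103, and spanned 5841079 to 5841434. It lay upstream, its summit 335 bp before the 5′ end. Its summit fell at the same base, 5841257, in the pooled list and in both replicates, with signals of 60.7 (rank 19) in replicate 1 and 34.6 (rank 47) in replicate 2. Ranked among the best signals of all protein-coding genes, puf-9 stood at percentile 99.9 in the pooled list, 99.9 in replicate 1 and 99.7 in replicate 2. This summit was also 1479 bp upstream of the 5′ end of dct-11, a gene on the other strand, so it does not belong to the window of puf-9 alone.

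The puf-9 summit lay inside a pair of overlapping noncoding RNA genes on opposite strands. These are W06B11.7 (X, 5841170 to 5841350, minus strand) and W06B11.9 (X, 5841185 to 5841361, plus strand), whose 5′ ends were 93 and 72 bp from the summit. No other noncoding gene lies within 1000 bp of the summit. Within 50 bp of the summit, G and C made up 48.5% of the bases, above that of 93.3% of all pooled regions. In the printed window GAGAGA was present on the minus strand 24 to 19 bp and 142 to 137 bp left of the summit, and GACGCA on the plus strand 72 to 67 bp left and 140 to 145 bp right of it. Searched on both strands, GAGAGA was in 17.8% of pooled windows of this length and in 41.8% of reproducible ones, and GACGCA in 6.89% and 20.7%. ACGCAG and CACGTG were not in the window. These 6-mers had been found frequent at the strongest regions of the same data, so their presence is a description.

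The rest of the puf-9 window was nearly empty of strong regions. A second pooled region, of rank 5918 (signal 22.1), had its summit 2118 bp upstream, with ranks of 26591 in replicate 1 and 3911 in replicate 2. This summit, too, was in the window of dct-11. Within the gene, replicate 1 listed an intron region of rank 28611 and replicate 2 listed regions of ranks 19537, 20458 and 29102 in exons. None of these gene-body regions was in the pooled list or matched between replicates within 100 bp.

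By their best ranks in the pooled and replicate lists, the genes most like puf-9 were pkg-2, F16G10.14 and rpl-35. The measure was the sum over 3 lists of the absolute difference in log10 rank, over 11112 genes with a region in every list and no summit shared with puf-9. It was 0.101 for pkg-2, a cGMP-dependent kinase gene, with ranks of 12 (pooled), 17 (replicate 1) and 49 (replicate 2). It was 0.244 for F16G10.14 (17, 18 and 37) and 0.414 for the ribosomal protein gene rpl-35 (24, 22 and 57). To the digits shown, C17G10.6 (18, 25 and 33) tied with rpl-35 at 0.414. Likeness here is of rank and not of role.

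hbl-1, a zinc-finger transcription factor gene related to hunchback of Drosophila, lies 13836 bp from puf-9 on the same strand (WBGene00001824; X, 5822142 to 5827755). It held no reproducible region. Its 6 pooled regions had ranks from 3152 to 11718 and signals from 25.4 to 18.5. The strongest, 1463 bp upstream, matched rank 2334 (signal 15.4) in replicate 1 and had no summit within 100 bp in replicate 2, where it overlapped the region of rank 8913. A region 786 bp upstream (pooled rank 4853) was in both replicates, at ranks 3914 and 20108. In replicate 2 the strongest hbl-1 region was elsewhere, of rank 1060 (signal 19.9) at 4734 bp past the 5′ end. That summit was matched by a pooled region of rank 9004 in the 3′ untranslated part of the gene, which is also within 3000 bp upstream of acp-5.

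Both upstream regions of hbl-1 carried WGATAR within 50 bp of the summit, and their 100-base windows are shown for the place of the motif. They lie at chrX:5820629-5820728 and chrX:5821306-5821405 on the plus strand of ce11, with WGATAR in capitals. WGATAR was in 23.6% of windows of this length at all pooled regions.
hbl-1, rank 3152: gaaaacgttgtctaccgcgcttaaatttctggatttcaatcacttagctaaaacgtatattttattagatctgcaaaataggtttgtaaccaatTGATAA
hbl-1, rank 4853: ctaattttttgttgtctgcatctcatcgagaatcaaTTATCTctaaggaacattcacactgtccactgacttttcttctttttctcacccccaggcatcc
In the first the match is TGATAA, 44 to 49 bp right of the summit. In the second it is AGATAA on the minus strand, 14 to 9 bp left of the summit. The other 4 pooled regions of hbl-1 had no match within 50 bp. In the window 500 bp to the right of the summit, 4 of the 6 pooled regions of hbl-1 had a match, that of rank 3152 among them.

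**Figure D2:**
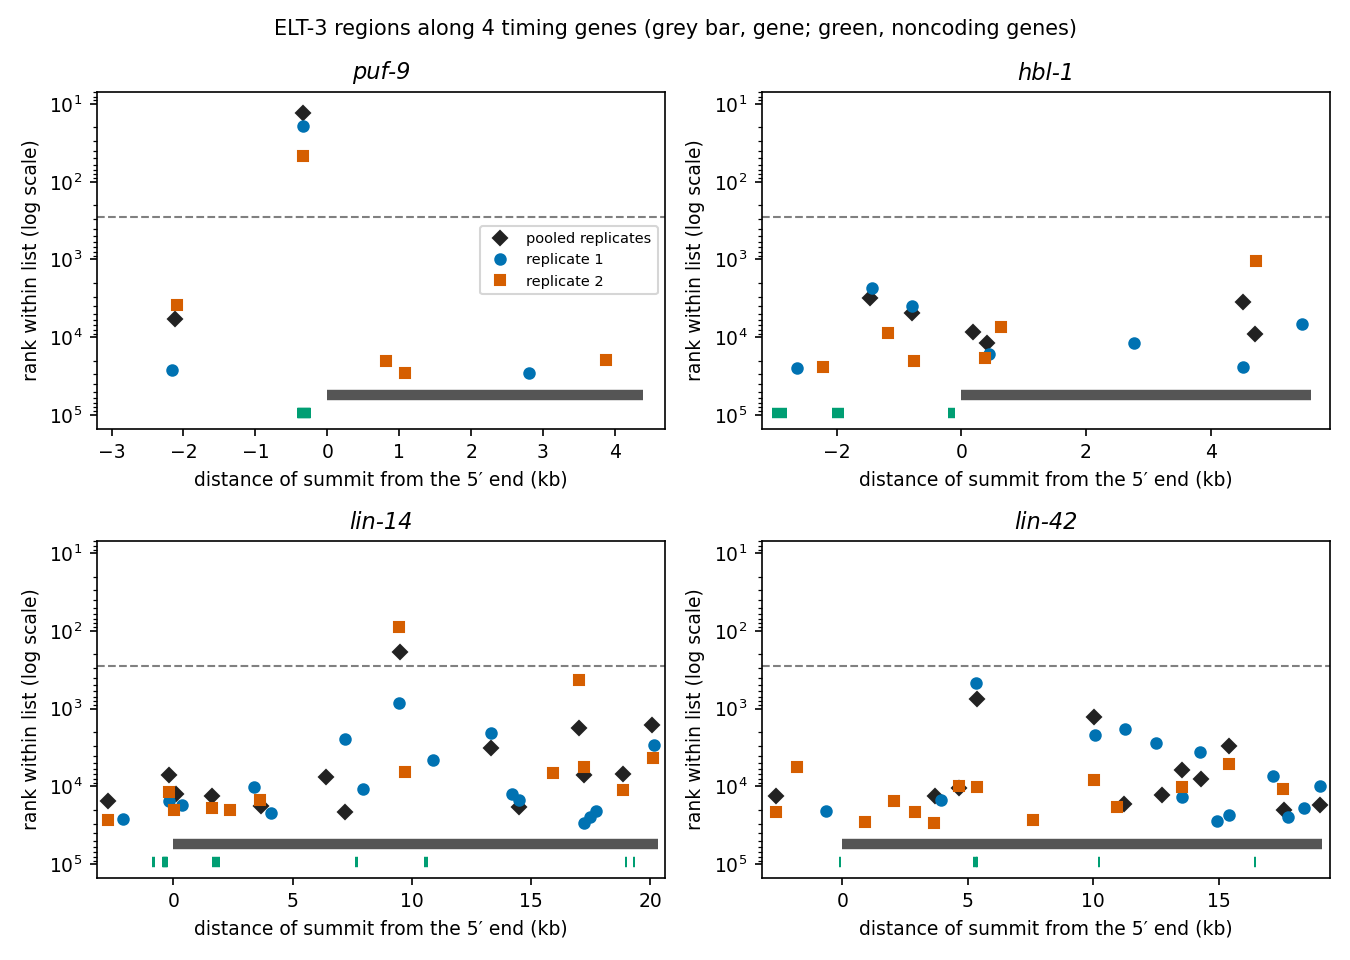
ELT-3 regions along puf-9, hbl-1, lin-14 and lin-42: distance of each summit from the 5′ end in kb (horizontal) against rank within its list (vertical, log scale, strongest on top), with the gene as a grey bar and noncoding genes in green. The symbols of puf-9 at rank 13, 19 and 47 stand over the noncoding genes; the dashed line is at rank 280.

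lin-14 encodes a nuclear protein that holds early larval fates and is the classic target of the lin-4 microRNA (WBGene00003003; X, 11465560 to 11485871, plus strand). Its reproducible region had rank 187, with a signal of 52.0, and spanned 11474863 to 11475218. The summit lay in an intron, 9481 bp past the outer 5′ end and 5320 bp before the 5′ end of the shorter of the 2 annotated transcripts. In replicate 1 the matched region had rank 842 (signal 20.7) and in replicate 2 rank 88 (signal 30.6). Ranked in the same way, lin-14 stood at percentile 98.9 in the pooled list, 95.3 in replicate 1 and 99.4 in replicate 2. No noncoding gene or other coding gene lay within 1000 bp of this summit. Within 50 bp of it G and C made up 30.7%, lower than at the puf-9 summit.

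The lin-14 window held 14 pooled regions, 2 upstream and the rest within the gene. Of these, 8 were in introns, 1 in a coding exon, 1 in the 5′ and 2 in the 3′ untranslated part. A summit within 100 bp in both replicates was found for 4 of the 14, beside 25.1% of all pooled regions. The second strongest, of rank 1624 (signal 29.3), lay 20084 bp past the 5′ end in the 3′ untranslated part, with ranks 2939 and 4317 in replicates 1 and 2. Its summit was also in the window of spp-9. Rank 1771, in a coding exon 17028 bp past the 5′ end, was strong in replicate 2 (rank 433) and had no summit within 100 bp in replicate 1. Close to the outer 5′ end the strongest pooled region had rank 7143. It lay 188 bp upstream, 41 bp from the noncoding gene T25C12.9 and 67 bp from T25C12.8, with ranks of 15236 and 11720 in the replicates. The regions of ranks 13105 and 6824 lay 2 bp from the noncoding gene T25C12.7 and 65 bp from the small nucleolar RNA gene T25C12.11. The strongest binding signal of lin-14 was thus inside the gene and away from its noncoding neighbours.

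WGATAR was within 50 bp of the summit at 3 of the 14 pooled regions of lin-14, those of ranks 187, 3198 and 18543. The share over all pooled regions was 23.9%. In the window 500 bp to the right of the summit, 4 of the 14 had a match. At rank 187 the match nearest to the summit was AGATAA on the plus strand. At rank 3198 it was TGATAG, 38 to 43 bp right of the summit. A pair of the 4 matches in the printed lin-14 window overlaps, in bases 24 to 29 and 29 to 34 of the window.

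lin-42 encodes the worm relative of the clock protein Period, whose RNA rises and falls with each moult (WBGene00018572; II, 1233236 to 1252359, minus strand). It held no reproducible region. Its 12 pooled regions had ranks from 746 to 20042. The strongest (signal 35.3; II, 1246800 to 1247155) was in an intron 5381 bp past the 5′ end. It matched rank 466 (signal 24.8) in replicate 1 and rank 10132 (signal 12.5) in replicate 2, so its place rested mostly on replicate 1. The next, of rank 1281 (signal 31.0), lay 10048 bp past the 5′ end in an intron, with rank 2201 in replicate 1 and 8375 in replicate 2. The third, of rank 3028, was 32 bp past the 5′ end of a shorter transcript, with ranks 23253 and 5201. The strongest replicate 2 region of lin-42 was this one. Of the 12 regions, 8 were in introns, and 4 had a summit within 100 bp in both replicates, beside 25.1% of all pooled regions.

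The top pair of lin-42 regions differed in sequence, and the 100-base windows around their summits show it. They lie at chrII:1246928-1247027 and chrII:1242261-1242360 and are written on the minus strand of ce11, the strand of lin-42, with WGATAR in capitals.
lin-42, rank 746: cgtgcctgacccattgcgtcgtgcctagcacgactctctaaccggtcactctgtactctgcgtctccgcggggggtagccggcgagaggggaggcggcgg
lin-42, rank 1281: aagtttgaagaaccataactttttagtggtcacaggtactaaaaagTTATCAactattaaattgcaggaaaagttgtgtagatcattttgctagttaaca
The first has no match and the second 1. Within 50 bp of the summit, G and C made up 67.3% at rank 746 and 29.7% at rank 1281, beside a median of 33.7% over all pooled regions. Another intron region of lin-42, of rank 8051, reached 74.3%, the highest value of any pooled region. It matched rank 3599 in replicate 1 and nothing within 100 bp in replicate 2. The summit of rank 746 lay inside the noncoding gene F47F6.13 (II, 1246968 to 1247045, plus strand) and 33 bp from F47F6.15 on the other strand. Rank 1281 lay 140 bp from the noncoding gene F47F6.11.

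let-7 is the microRNA that ends larval fates (WBGene00002285; X, 14743590 to 14745321, minus strand, as the primary transcript). Its seed, bases 2 to 8, is shared by the family members mir-48, mir-84 and mir-241, which act together on hbl-1. The mature sequences were read from the ce11 genome at the positions of the RefSeq annotation, with the seed in capitals. let-7 lies at chrX:14744234-14744255, mir-48 at chrV:14364472-14364494, mir-84 at chrX:16022447-16022470 and mir-241 at chrV:14366248-14366268, all on the minus strand.
let-7: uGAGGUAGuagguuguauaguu
mir-48: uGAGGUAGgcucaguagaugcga
mir-84: uGAGGUAGuauguaauauuguaga
mir-241: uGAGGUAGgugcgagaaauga
The let-7 window held 4 pooled regions, of ranks 8094, 12505, 15692 and 16533, with signals from 20.5 to 16.7. The strongest, 1896 bp upstream, matched rank 8571 in replicate 1 and overlapped rank 6108 in replicate 2, and it is also within 3000 bp upstream of C05G5.2. Replicate 1 listed 8 regions in this window and replicate 2 listed 2. The strongest of replicate 1, of rank 2361 (signal 15.4), was 463 bp inside the primary transcript, 179 bp from the noncoding gene C05G5.8, and had no region in the pooled list or within 100 bp in replicate 2. The order of these 4 microRNA genes by their best region changed between the lists. By the positions above, mir-48 and mir-241 lie within 3000 bp of each other on the same strand. Their upstream windows therefore overlap and can share regions, so the places of these genes are not independent. In the pooled list it was mir-241 (rank 474, 2813 bp upstream), mir-84 (1858), let-7 (8094) and mir-48 (8231). In replicate 1 it was mir-84 (1063), mir-241 (2156), let-7 (2361) and mir-48 (2550). In replicate 2 it was mir-241 (702), mir-48 (1458), let-7 (6108) and mir-84 (12474).

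Regions at lin-28, lin-41 and lin-46 were weak or unmatched. lin-28 (WBGene00003014; I, 8407630 to 8410804), an RNA-binding protein gene that blocks let-7 processing, had pooled regions of ranks 17516 and 18026. The first matched replicate 1 alone (rank 14867) and the second replicate 2 alone (rank 6940). The summit of rank 17516 was also in the window of F02E9.7. lin-46 (WBGene00003031; V, 12968855 to 12970730), a gephyrin-related gene that acts against HBL-1, had a single pooled region, of rank 11291 in an intron, matched in replicate 2 alone (rank 6556). That summit was also in the windows of R186.3, pnn-1 and R186.8. lin-41 (WBGene00003026; I, 9334800 to 9342496), a TRIM-NHL protein gene and target of let-7, had no pooled region and none in replicate 2. Replicate 1 listed 4, and the strongest, 1453 bp upstream, had rank 1184 and a signal of 18.6. By that signal lin-41 stood at percentile 93.8 in replicate 1.

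Regions of the pooled list, which also holds background regions, were dense at some of the genes. They numbered 0.845 per kb of window at let-7, 0.697 at hbl-1, 0.601 at lin-14 and 0.542 at lin-42, at percentiles 98.6, 96.5, 93.8 and 91.2 of all protein-coding genes, whose median was 0.2 per kb. At puf-9 the density was 0.270 per kb (percentile 67.8), at lin-28 0.324 (74.6) and at lin-46 0.205 (51.5). The gene with the strongest region was thus not among those with the most regions. lin-14 and lin-42 also have long windows, of 23.3 and 22.1 kb. Among 270 protein-coding genes with windows from 0.8 times the length of that of lin-14 to its length divided by 0.8, the median was 4 pooled regions and 98.5% had fewer than 14. Of the 309 genes set beside lin-42 in the same way, 96.8% had fewer than 12. The chromosomes differ as well, since the median over the genes of chromosome X, which has 4 of the 8 genes, was 0.237 per kb. Many of the counted regions had a low −log10 q-value, which means a large q-value. It ran from 0.023 to 0.051 at let-7 and from 0.032 to 0.161 at hbl-1. At lin-14 it ran from 0.018 to 2.095 and at lin-42 from 0.02 to 0.662. A high density here is thus not a count of significant regions.

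**Figure D3:**
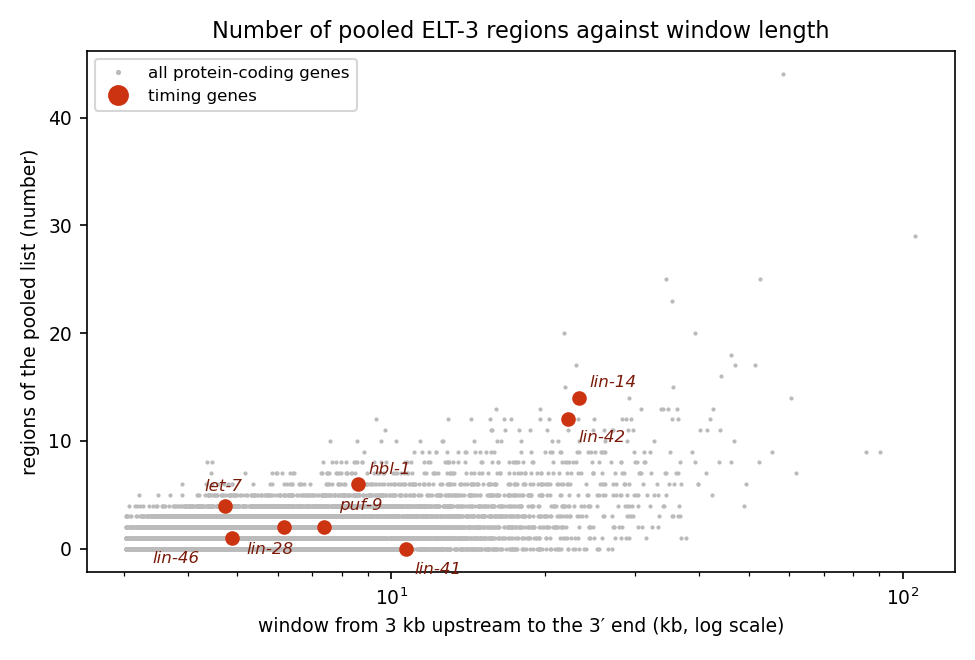
Number of pooled regions in the window of each gene (vertical) against window length in kb (horizontal, log scale) for 19973 protein-coding genes (grey) and the 8 timing genes (red). lin-14 and lin-42, with 14 and 12 regions, lie near the upper edge at their length, puf-9 and lin-28 have 2 each and lin-41 has 0.

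Over the 41 pooled regions of the 8 genes, 20 had their summit in an intron, 11 upstream, 5 in the 3′ and 2 in the 5′ untranslated part, 2 in a coding exon and 1 in the let-7 transcript. WGATAR was within 50 bp of 9 summits (22.0%, 95% Wilson interval 12 to 36.7), beside 23.9% of all pooled regions. In the window 500 bp to the right of the summit it was in 15 of the 41 (36.6%), beside 20.5% of all. A summit within 100 bp in both replicates was found for 13 (31.7%, interval 19.6 to 47.0), beside 25.1% of all pooled regions. The pooled list was made from both replicates, so such a match is partly built in. Counting replicate 1 on its own, it was found for 24 (58.5%, beside 53.3% of all) and in replicate 2 for 26 (63.4%, beside 62% of all). A noncoding gene other than let-7 was within 200 bp of 6 summits (14.6%, interval 6.88 to 28.4), beside 8.75% of all. These 6 were at puf-9, lin-14 and lin-42, and at 2 of them, puf-9 rank 13 and lin-42 rank 746, the summit lay inside the noncoding gene (4.88%, beside 2.26% of all). Each of these shares, other than that of the control window, had an interval that held the value of the whole list. Regions at a gene share its window, so the intervals cover counting error over regions only. Between the replicates, 13 of the 56 replicate 1 regions (23.2%) and 13 of the 43 replicate 2 regions (30.2%) had a partner within 100 bp, beside 18.0% over each whole list.

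The 3000 bp limit left some regions just outside. The nearest to the limit was at lin-46, with a replicate 2 region of rank 29096 inside at 2984 bp and a pooled region of rank 15175 outside at 3012 bp. At lin-28 a pooled region of rank 2041 (signal 28.0) lay outside at 3187 bp, stronger than either region inside. At lin-14 a pooled region of rank 2292 lay outside at 3725 bp, and at hbl-1 one of rank 6064 at 3717 bp.

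A list of 32 other genes of the timing pathway, drawn from general knowledge with earlier results of these data known, was placed in the same lists. Of these genes, 3 had a reproducible region (1.66% of all protein-coding genes), 26 a pooled region (67.2%) and 10 a region among the 1000 strongest (5.34%). These counts are a description. The list mixes microRNA genes with genes of long windows, such as daf-12 (34.0 kb), and the shares do not take window length into account. ain-1, which encodes a GW182-type partner of Argonaute, had rank 63 (signal 74.5), with the summit 994 bp upstream and ranks of 87 and 132 in the replicates. This summit was also in the window of F59C12.3. nhr-23, a nuclear hormone receptor gene of the moulting cycle, had 2 reproducible regions, the stronger of rank 85 (signal 67.7) in an intron, with matched ranks of 122 and 99. nhl-2, which encodes a TRIM-NHL cofactor of microRNA silencing, had rank 203 (signal 50.7) 890 bp upstream, with 205 and 1309, but this summit is nearer to the 5′ end of tag-340.

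The other 7 genes with one of the 1000 strongest pooled regions were ain-2 (rank 344), mir-241 (474), din-1 (523), the Argonaute gene alg-1 (546), nhr-85 (634), the cytochrome gene daf-9 (747) and the nuclear receptor gene daf-12 (968). The ain-2 summit was also in the window of ptps-1. Other genes of microRNA production and silencing on the same list ranked low: alg-2, the paralogue of alg-1, had a best pooled rank of 13238 and no region in replicate 1, and dcr-1, which encodes Dicer, had no pooled region. Replicate ranks differed widely for nhr-85, whose best was 2506 in replicate 1 and 142 in replicate 2. lin-29, the zinc-finger gene at the end of the pathway, had a best pooled rank of 1357, and lin-4 had 2381. lep-2 had no region in any list. Of the 10 summits among the 1000 strongest that are named here, none had WGATAR within 50 bp, beside 23.9% of all pooled and 44.3% of all reproducible regions.

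**Figure D4:**
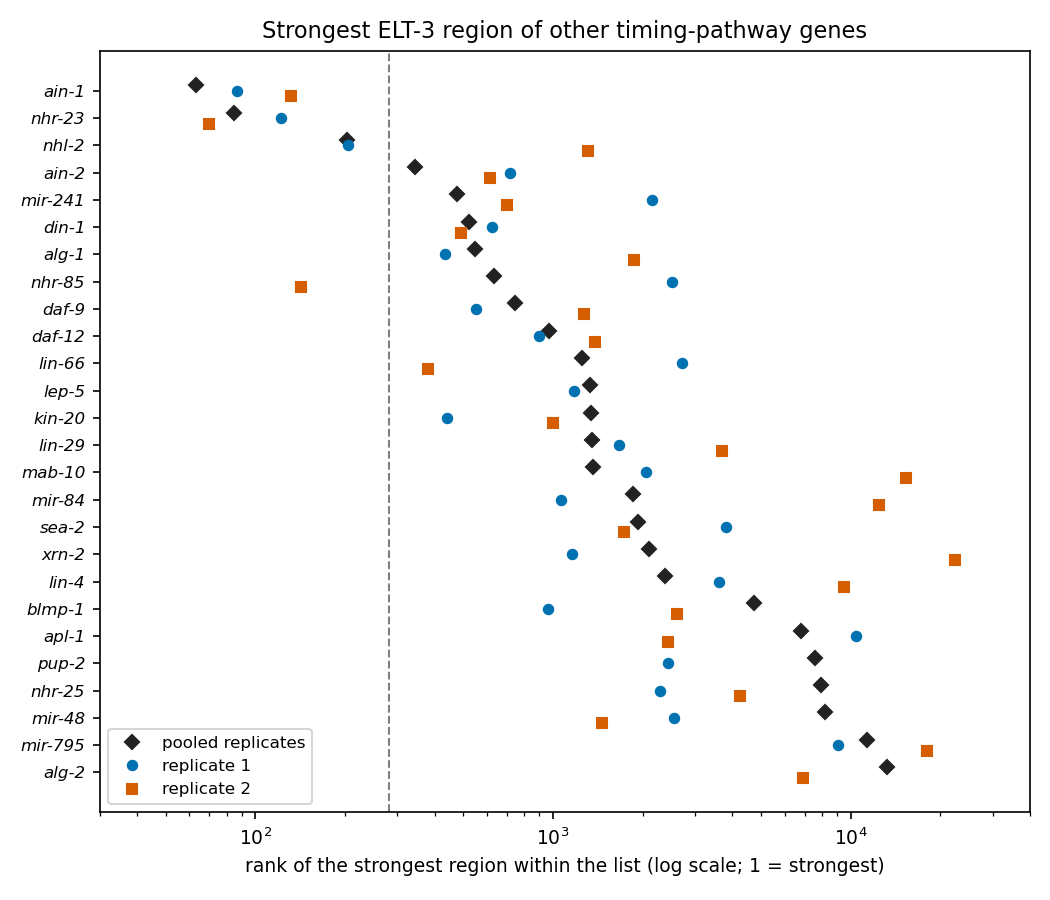
Rank of the strongest region (horizontal, log scale) of the 26 other timing-pathway genes with a pooled region, in the pooled list (diamonds), replicate 1 (circles) and replicate 2 (squares). ain-1, nhr-23 and nhl-2 lie left of the dashed line at rank 280 in the pooled list.

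Of 12 further PUF-family names, 11 matched the annotation, and puf-4 and puf-10 among them are annotated as pseudogenes. Of the 11, 0 had a reproducible region (1.66% of all protein-coding genes), 0 had one among the 1000 strongest (5.34%) and 5 had a pooled region (67.2%). With shares this low over all genes, counts of 0 among 11 do not set the family apart. The strongest was at puf-12, of rank 7400 (signal 20.9), 145 bp past the 5′ end. Those of fbf-2, puf-11, puf-8 and puf-5 had ranks from 10325 to 21576.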

How the data were processed

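ELT-3 ChIP-seq regions of 2 biological replicates were used as the authors deposited them on ce11. Per the file headers and README texts, a replicate list was made from the alignments of that replicate and a further file, the pooled list from both replicates, and the IDR list from all of these. The labels name a possible control experiment, which is not analysed here. No source used here gives the aligner, peak caller, IDR threshold or depth. The signal and the −log10 q-value per region are as deposited by the authors. The q-value was not used to rank, select or count regions and is only quoted for some pooled regions. The ce10 lists were not used.

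Regions were ranked by signal within each list and placed by summit with Ensembl release 115 gene models and the WBcel235 genome. For 7 genes the name matched; let-7 was matched through its RefSeq cross-reference, as were other microRNA genes. A match between lists was a summit within 100 bp. Scripts in Python 3.11.15 were tested on simulated data. Genes named are the 8 members, other timing and PUF-family genes with a region among the 1000 strongest, genes within 1000 bp of a member's IDR summit, and the 3 most like puf-9; others were chosen after their values were seen. Members and lists were chosen with earlier results of these data known, and no test was made.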

Additional observations from a re-analysis of the deposited data

How the results depend on the processing

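Of 24 alternatives to the counts, 18 stayed within 1.5 times the reported count. With the stronger part of the IDR list (140 regions), 1 gene, puf-9, held a reproducible region in place of 2. Using the 280 strongest regions of a single replicate, the range was 1 to 2 genes: without replicate 2 lin-14 was lost, and without replicate 1 it was kept. With the 1000 strongest pooled regions alone, 3 genes held 3 regions. Counting any overlap of regions as a match, 26 pooled regions were matched in both replicates in place of 13. With 100 bp on each side of the summit, 14 regions had WGATAR in place of 9, as the wider window allows. With a limit of 1000 bp upstream the best pooled rank of let-7 moved from 8094 to 12505 and that of hbl-1 from 3152 to 3485. Any overlap with the window gave lin-41 a pooled region of rank 16486 and lin-42 one of rank 706. No control library was analysed here, so the level of background at these genes was not measured. Depth is unknown, and the weak regions of the pooled and replicate lists include background.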

Other observations

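Some regions lay just past the 3′ ends of the timing genes, outside the windows described above. The strongest was a reproducible region of rank 77 (signal 69.7) 2140 bp past the 3′ end of lin-41. The nearest coding 5′ end was that of cbl-1, and the summit lay 4803 bp past it, not upstream of it. At lin-42 a pooled region of rank 706 (signal 35.9) lay 125 bp past the 3′ end, stronger than any inside the window, and it was in both replicates, at ranks 1502 (124 bp past) and 1307 (136 bp past). At hbl-1 a pooled region of rank 2797 lay 523 bp past the 3′ end and 1157 bp upstream of acp-5, with ranks 7241 and 8610 in the replicates at 525 and 514 bp.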
